A study of Mus musculus with 10 samples.

Results

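Potassium channel subunits were taken as the protein-coding genes of the count table whose symbol starts with Kcn and that had at least 100 raw reads summed over the 10 libraries. This gave 54 of 94 such genes, from 40690 genes in all. The count sum used both groups together, without a test between them, but a high level in either group could bring a gene into the set. In the sham libraries alone 7 subunits reached 100 reads that did not reach it in the naive libraries, and 0 the reverse. Poly(A) RNA was sequenced from the heart ventricles of male C57BL/6 mice aged 10 weeks, with 5 sham-operated mice (a sham operation for ischemia-reperfusion) and 5 naive mice with no operation. All 10 mice were of the same strain, sex and age, and no transgene or drug is given for either group. The time between operation and tissue collection was stated in no label or protocol used here. The comparison asks which subunit transcripts differ in the ventricle after the control operation alone. The labels describe each library as a separate sample, and p-values measure the spread between these samples.

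Potassium channels set the resting potential of heart muscle cells and bring each action potential to its end. Pore-forming subunits assemble into the channel itself, whereas accessory subunits change its gating or its delivery to the cell surface. In the mouse ventricle repolarisation rests mainly on transient outward and slowly inactivating voltage-gated currents, while inward rectifiers hold the resting potential. Smooth muscle, endothelium, fibroblasts and immune cells of the ventricle carry other potassium channels. In bulk tissue, fewer cells of a type and less RNA per cell cannot be told apart.

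Sham libraries held 10654107 to 21537135 counted reads and naive libraries 9683181 to 17577906. A gene with 3 reads stood at 0.122 to 0.356 CPM (read count relative to the TMM-scaled library total) across the libraries, which covers counting error only. Summed over the 12 ventricular cardiomyocyte markers examined (Myh6, Tnnt2, Pln and others), levels were 83357 to 94794 CPM in sham and 114588 to 117221 CPM in naive libraries, and 10 of the 12 were lower in sham. Macrophage markers summed to 729.7 to 933 CPM in sham and 252.2 to 306 CPM in naive libraries, with 7 of 7 higher. Fibroblast markers summed to 11211 to 20924 CPM in sham and 1104 to 1613 CPM in naive libraries, with 6 of 7 higher. Col1a1 and Col3a1 made up most of these sums. Col1a1 averaged 8580 ± 2029 CPM in sham and 600 ± 156 CPM in naive libraries. Col3a1 averaged 6930 ± 1747 CPM in sham and 555 ± 125 CPM in naive libraries. The other markers changed less on the log2 scale, with Lum at 1.34, Dpt at 1.24, Tcf21 at 0.68, Pdgfra at 0.56 and Dcn, which did not pass, at 0.31. The 4 atrial markers summed to 39.4 to 138 CPM in sham and 41.3 to 56.6 CPM in naive libraries. Of these, Nppa was higher, at 82.1 ± 34.4 CPM in sham and 45.1 ± 6.08 CPM in naive libraries, which is 0.87 ± 0.27 (SE, adjusted p = 0.0309) on the log2 scale. Exon bases overlap another gene by 61.5% in Nppa. Among the cardiomyocyte markers they do so by 64.7% in Pln, 31.9% in Mb and 15.5% in Ckm, so these values are uncertain. Mb averaged 11011 ± 1787 CPM in sham and 13260 ± 466 CPM in naive libraries, so the summed cardiomyocyte level shares this uncertainty. Myl4 was at 0.53 ± 0.24 (SE, adjusted p = 0.0980) and Myl7 at 0.05 ± 0.68 (SE, adjusted p = 0.967), and Sln had 1 read in all. Myl7 stood at 3.29 CPM in sham 4 and at no more than 0.732 CPM in the other sham libraries.

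Levels of different subunits were compared per length, as TMM-normalised CPM per kilobase of exon. Kcnk3, the acid-sensitive background channel TASK-1, stood first with 212 ± 20.2 in sham and 265 ± 38.2 in naive libraries (SD, n = 5 each). It made up 31.1% ± 1.80 of the summed per-length level of the 54 subunits in sham and 28.8% ± 2.83 in naive libraries. Next came the silent subunits Kcns3, at 101 ± 38.4 in sham and 183 ± 121 in naive libraries, and Kcng2, at 102 ± 11.4 in sham and 137 ± 26.9 in naive libraries. Silent subunits form no channel alone and join the pores of other voltage-gated channels. Kcnip2, the calcium-binding accessory subunit of Kv4 channels, was at 64.8 ± 10.6 in sham and 106 ± 9.88 in naive libraries, above its pore partners Kcnd2, at 2.53 ± 0.461 in sham and 4.55 ± 0.857 in naive libraries, and Kcnd3, at 1.80 ± 0.318 in sham and 2.54 ± 0.386 in naive libraries. Kcnh2, the pore of the rapid delayed rectifier, was at 41.9 ± 6.12 in sham and 45.6 ± 8.004 in naive libraries. Kcnj11, the ATP-sensitive pore of heart muscle, was at 29.7 ± 3.89 in sham and 39.9 ± 4.82 in naive libraries. In sham libraries Kcns3 and Kcng2 did not differ beyond their spread, nor in naive libraries did Kcns3 from Kcnk3 or Kcng2. With the length of the longest transcript in place of all exon bases the 11 highest subunits kept their order.

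**Figure D1:**
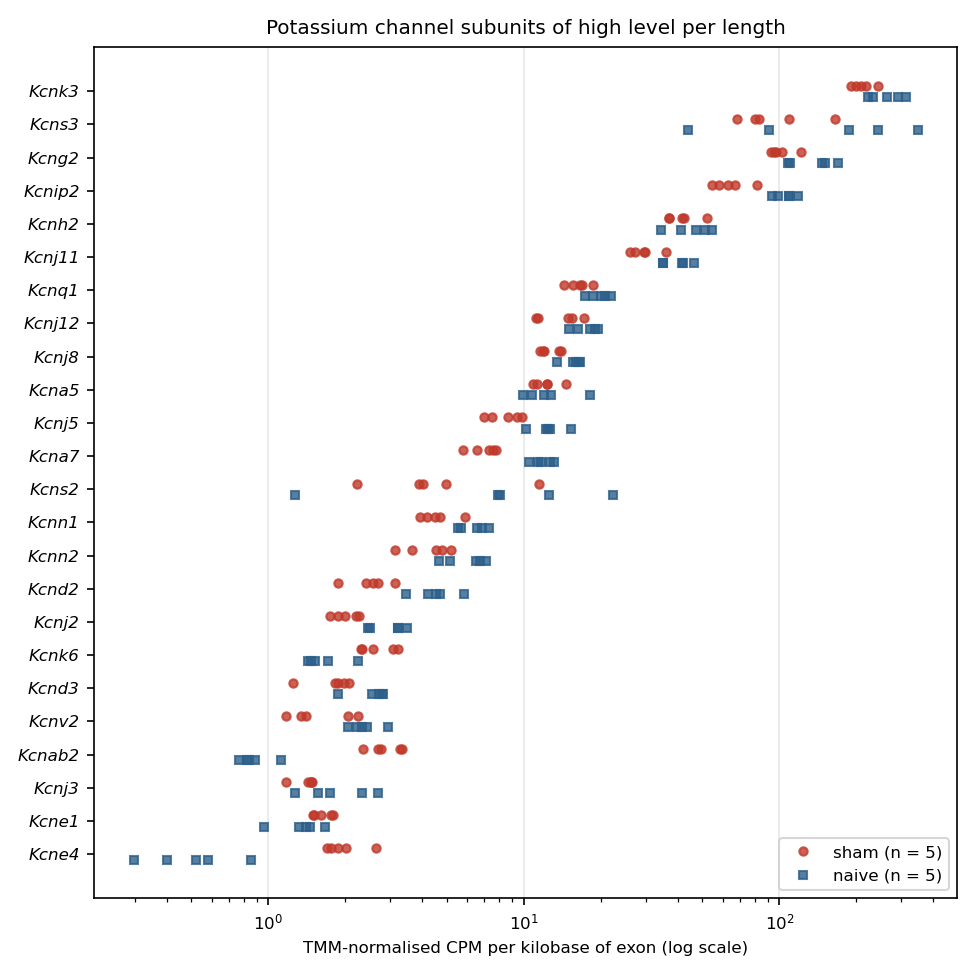
TMM-normalised CPM per kilobase of exon (log axis) of 24 subunits of high level, 1 point for each library, with sham above naive for each gene. Kcnk3 is highest by the mean of each group, the highest single point is Kcns3 in naive 1, and the naive points of Kcns3 and Kcns2 are the most widely spread.

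Of the 54 subunits, 53 passed the filter on low counts and were tested, and 1 was not. Among the 53, 17 were lower in sham, 7 were higher and 29 did not pass (quasi-likelihood F test of edgeR, with p adjusted over 13622 genes by Benjamini-Hochberg and called under 0.05). Of all genes tested, 15.5% were lower and 17.2% higher (32.7% in either direction), so 32.1% of the tested subunits stood against 15.5% for lower calls and 13.2% against 17.2% for higher calls. The median log2 fold change of the tested subunits was -0.18, and that of all genes tested -0.05. Groups did not overlap, with sham below, in 6 subunits, and with sham above in 7, against 9.22% and 13.5% of all genes tested (22.7% in either direction). The falls were small, with a median of 1.42-fold, and the rises larger, with a median of 3.08-fold. At least 2-fold lower were 2 subunits, Kcnc1 and Kcnj14, against 0.551% of all genes tested, and at least 2-fold higher were 6, against 7.3%.

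The count of lower subunits depended on how libraries were scaled. With library size alone, 4 were lower and 9 higher, and scaled to the summed cardiomyocyte markers, 4 were lower and 11 higher. The median log2 fold change of all genes tested then moved to 0.22 and 0.32, and that of the subunits to 0.08 and 0.18. The same 4 subunits, Kcnip2, Kcnd2, Kcna7 and Kcnc1, were lower under TMM and both of these scalings. The other 13 lower calls passed with TMM and with RLE factors, which kept all 17, but neither with library size alone nor scaled to cardiomyocyte markers. Without sham 5 the lower count was 11. Over all genes tested the lower count fell too, to 1485 of 13715 without sham 5, against 2113 of 13622 with all libraries. All 7 higher subunits passed under each of the 21 alternatives run. Of these 7, Kcnn4, Kcne4, Kcnk13 and Kcnj15 had under 100 reads in the naive libraries and entered the set through the sham libraries, so their number is not support for a rise of potassium channels as a group.

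**Figure D2:**
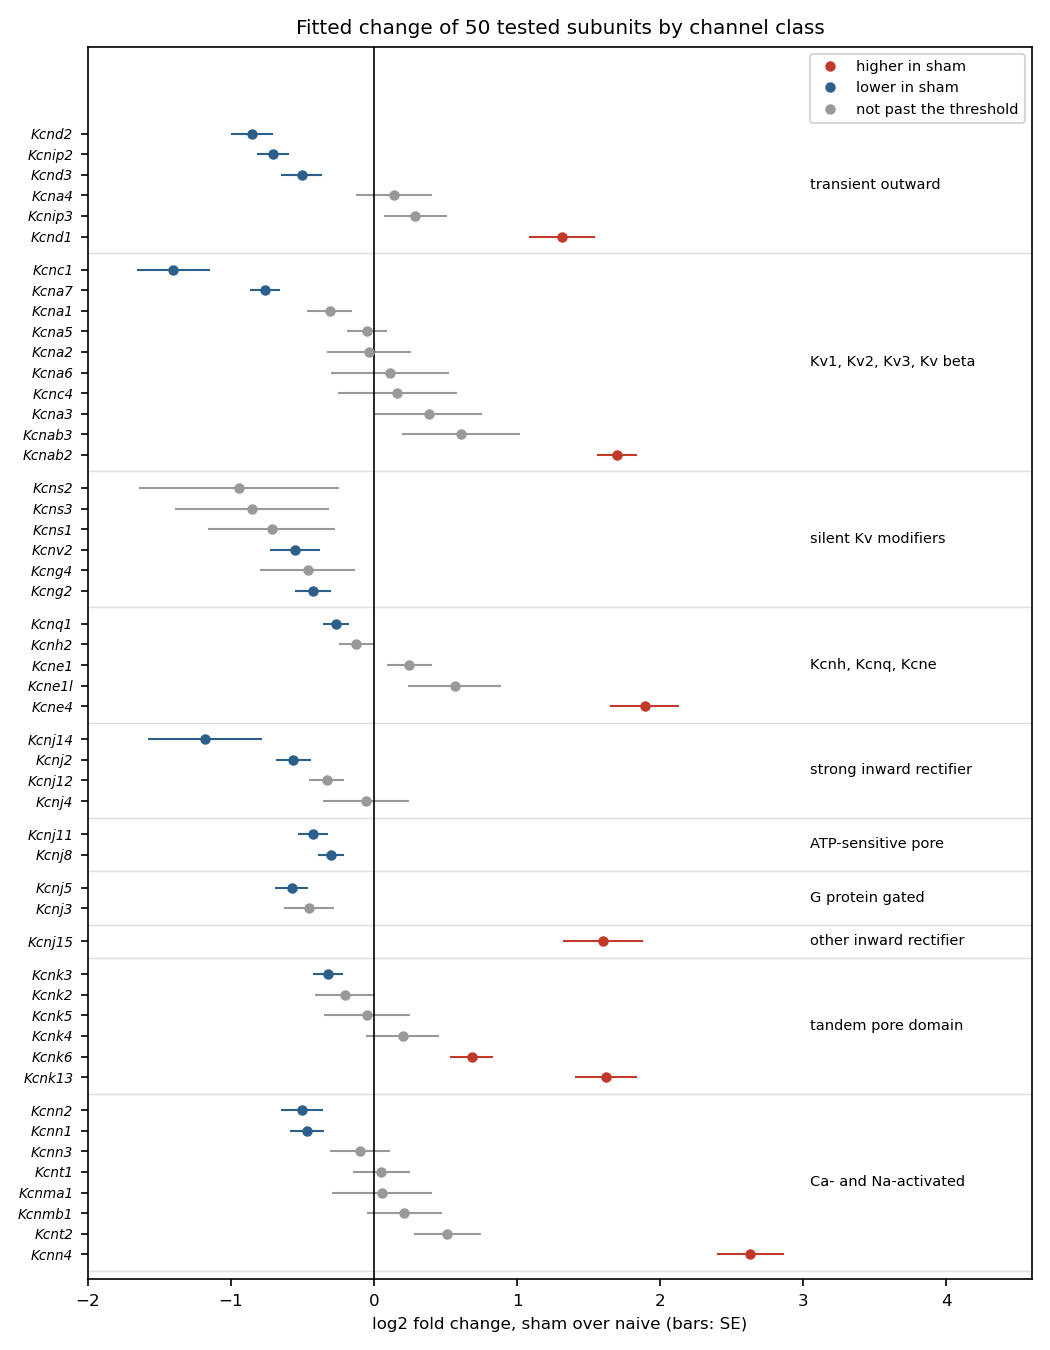
Fitted log2 fold change of sham over naive for 50 of the 53 tested subunits, grouped by channel class, with SE bars. The 16 lower subunits shown lie between -1.40 and -0.27, and the 7 higher ones between 0.68 and 2.63.

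Transient outward channels open briefly at the start of the action potential. Of the 6 tested subunits of this class, 3 were lower in sham, 1 was higher and 2 did not pass. Kcnip2 (chromosome 19, 45791839 to 45816061, minus strand, build GRCm38) had 284, 233, 219, 189 and 201 CPM in sham libraries 1 to 5, against 412, 379, 379, 324 and 343 CPM in naive libraries 1 to 5. All 5 sham libraries lay below all 5 naive libraries, and the log2 fold change was -0.71 ± 0.11 (SE, adjusted p = 1.32e-04). Kcnd2, the Kv4.2 pore subunit (chromosome 6, 21215503 to 21729805, plus strand), had 16.2, 12.4, 13.3, 9.62 and 13.8 CPM in sham libraries 1 to 5, against 17.8, 21.6, 23.4, 24.3 and 29.9 CPM in naive libraries 1 to 5. Again the groups did not overlap, with naive 5 highest and sham 4 lowest, at -0.86 ± 0.15 (SE, adjusted p = 3.50e-04). Kcnd3, the Kv4.3 pore subunit, had 17.9, 19.7, 19.0, 12.02 and 17.5 CPM in sham libraries 1 to 5, against 24.3, 26.6, 26.0, 18.0 and 26.9 CPM in naive libraries 1 to 5. Here naive 4 lay within the sham range, and the log2 fold change was -0.51 ± 0.14 (SE, adjusted p = 0.0115). Scaled to cardiomyocyte markers, Kcnip2 was at -0.34 (adjusted p = 0.0167), Kcnd2 at -0.48 (adjusted p = 0.0159) and Kcnd3 at -0.13 (adjusted p = 0.5002), all by edgeR.

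The third Kv4 pore gene, Kcnd1 (chromosome X, 7822289 to 7838280, plus strand), went the other way from a low level. It had 3.37, 3.46, 6.29, 4.14 and 5.17 CPM in sham libraries 1 to 5, against 1.19, 1.78, 1.499, 2.50 and 1.95 CPM in naive libraries 1 to 5, and all sham libraries lay above all naive ones, at 1.31 ± 0.23 (SE, adjusted p = 4.25e-04). Kcna4, the Kv1.4 pore of the slow transient outward current, averaged 1.21 ± 0.327 CPM in sham and 1.103 ± 0.263 CPM in naive libraries, and did not pass, at 0.14 ± 0.27 (SE, adjusted p = 0.731). The accessory subunit Kcnip3 was at 0.29 ± 0.22 (SE, adjusted p = 0.343), and it passed as higher when scaled to cardiomyocyte markers.

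Among the Kv1, Kv2 and Kv3 pores and their beta subunits, 3 of 12 tested genes were lower, 1 was higher and 8 did not pass. Kcna5, the Kv1.5 pore of a slowly inactivating current of the mouse ventricle, had 32.3, 41.7, 31.1, 35.3 and 35.2 CPM in sham libraries 1 to 5, against 34.4, 28.4, 30.9, 51.8 and 36.6 CPM in naive libraries 1 to 5. Its groups overlapped fully, at -0.05 ± 0.14 (SE, adjusted p = 0.818).

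Kcna7, the Kv1.7 pore subunit (chromosome 7, 45405653 to 45409763, plus strand), had 17.03, 15.9, 12.6, 14.2 and 16.5 CPM in sham libraries 1 to 5, against 27.6, 28.5, 24.7, 22.9 and 25.4 CPM in naive libraries 1 to 5. No library of one group reached the range of the other, and the log2 fold change was -0.76 ± 0.10 (SE, adjusted p = 4.29e-05). Kcnc1, the Kv3.1 pore subunit (chromosome 7, 46396497 to 46438704, plus strand), had 3.11, 0.970, 1.67, 2.31 and 1.59 CPM in sham libraries 1 to 5, against 6.41, 4.12, 5.84, 5.09 and 4.10 CPM in naive libraries 1 to 5. It showed the largest fall among the subunits tested, at -1.40 ± 0.25 (SE, adjusted p = 5.09e-04), with 166 reads over the sham and 325 over the naive libraries. Scaled to cardiomyocyte markers, Kcna7 was at -0.39 (edgeR adjusted p = 0.00690) and Kcnc1 at -1.04 (adjusted p = 0.00235).

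The beta subunit Kcnab2 (chromosome 4, 152390742 to 152477871, minus strand), a cytosolic partner of Kv1 pores, had 13.1, 18.6, 18.3, 15.002 and 15.5 CPM in sham libraries 1 to 5, against 4.28, 4.61, 6.23, 4.93 and 4.66 CPM in naive libraries 1 to 5. The groups did not overlap, the nearest libraries being sham 1 and naive 3, at 1.70 ± 0.14 (SE, adjusted p = 1.51e-07). Of the other tested members of the class, Kcna1, Kcna2, Kcna3, Kcna6, Kcnab3 and Kcnc4 lay between -0.31 and 0.61. Of the exon bases of Kcna6, 39.6% overlap a gene on the other strand, so its value is uncertain.

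**Figure D3:**
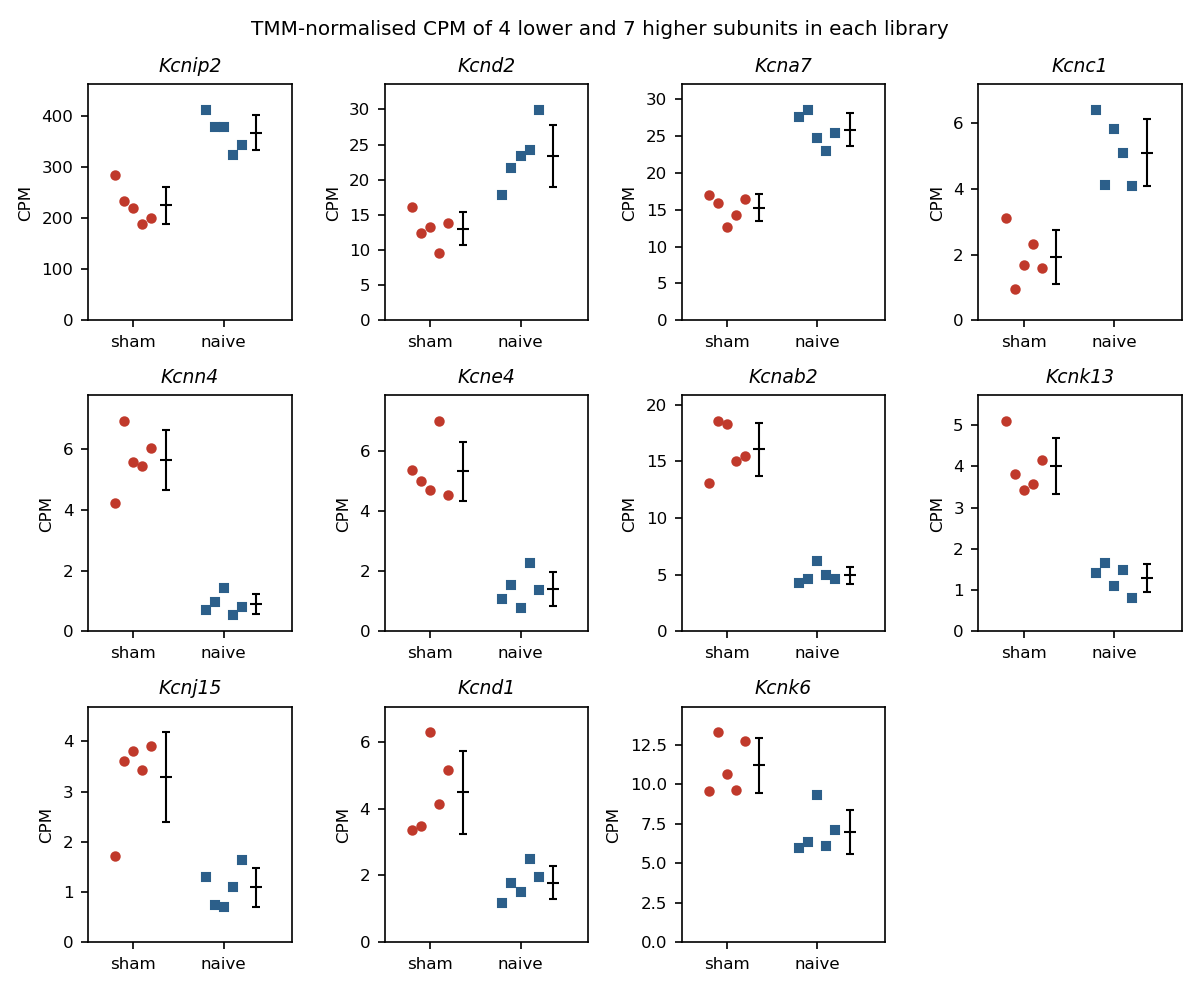
TMM-normalised CPM of 11 subunits in each library, with the mean and SD beside each group. In the top row all sham points lie below all naive points, and in the other rows they lie above, closely so for Kcnk6 (9.59 CPM in sham 1 against 9.31 CPM in naive 3) and Kcnj15 (1.73 CPM in sham 1 against 1.64 CPM in naive 5).

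All 6 silent Kv modifiers had a negative log2 fold change, and 2 of 6 passed as lower. Negative values were also common elsewhere, in 33 of the 53 tested subunits and in 7483 of all 13622 genes tested. Kcns1, Kcns2 and Kcns3 shared their highest and lowest naive library, as given below, so the 6 signs are not separate results. Kcng2 averaged 304 ± 34.1 CPM in sham and 409.9 ± 80.4 CPM in naive libraries and was lower at -0.43 ± 0.13 (SE, adjusted p = 0.0155); 9.10% of its exon bases overlap a gene on the other strand. Kcnv2, which modifies Kv2 channels, averaged 8.38 ± 2.41 CPM in sham and 12.2 ± 1.70 CPM in naive libraries and was lower at -0.55 ± 0.17 (SE, adjusted p = 0.0231). It did not pass without sham 2, 3 or 4 or naive 2 (adjusted p up to 0.0785). With library size alone neither passed.

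Kcns3, Kcns2 and Kcns1 had negative estimates too, but none passed, and naive libraries varied widely. Kcns3 had 264, 216, 344, 521 and 255 CPM in sham libraries 1 to 5, against 1102, 769, 595, 288 and 138 CPM in naive libraries 1 to 5. Kcns2 had 22.6, 12.4, 21.6, 63.9 and 27.6 CPM in sham libraries 1 to 5, against 125, 70.0, 45.0, 44.4 and 7.12 CPM in naive libraries 1 to 5. In both genes naive 1 was highest and naive 5 lowest of the naive group, sham 4 was highest of the sham group, and naive 5 lay below every sham library. The highest naive library stood 7.96-fold above the lowest for Kcns3 and 17.5-fold for Kcns2, whereas the other subunits with a mean of at least 10 CPM reached at most 2.07-fold. Kcns1, at 1.16 ± 0.618 CPM in sham and 1.97 ± 1.17 CPM in naive libraries, also had naive 1 highest, naive 5 lowest and sham 4 highest of its group. The fitted log2 fold changes were -0.85 ± 0.54 (SE, adjusted p = 0.268) for Kcns3, -0.95 ± 0.70 (SE, adjusted p = 0.348) for Kcns2 and -0.72 ± 0.44 (SE, adjusted p = 0.240) for Kcns1. The 3 genes lie on different chromosomes (12, 15 and 2), and no exon base of any of them overlaps another gene. In naive libraries, but not in sham, these genes carried much of the spread of the summed level. All 54 subunits summed to 2333 to 2889 CPM in sham and 2713 to 4483 CPM in naive libraries. Without the 3 Kcns genes the sums were 2016 to 2600 CPM in sham and 2436 to 3253 CPM in naive libraries. The SD of the sum was 760 CPM with these genes and 345 CPM without them in naive libraries. In sham libraries it was 203 CPM with them and 233 CPM without.

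**Figure D4:**
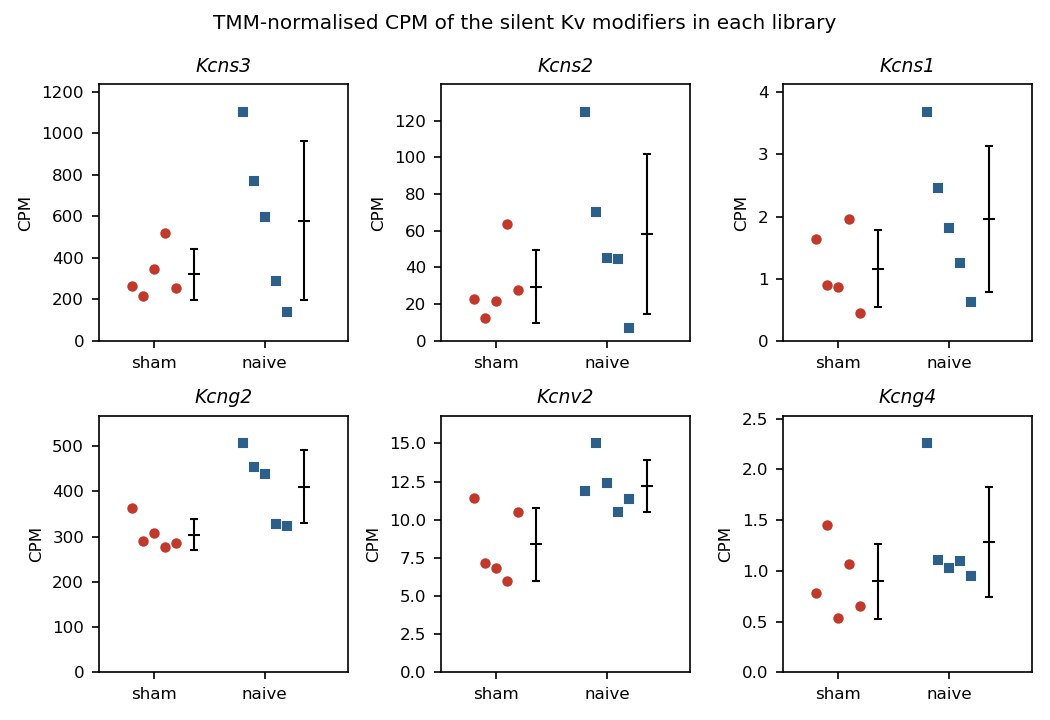
TMM-normalised CPM of the 6 silent Kv modifiers in each library, with the mean and SD beside each group. For Kcns3 and Kcns2 the naive points run from far above to below all sham points, whereas those of Kcng2 lie closer together.

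Delayed rectifier genes of the Kcnh, Kcnq and Kcne families were mostly not past the threshold, with 1 of 6 tested genes lower, 1 higher and 4 not past. Kcnh2 had 251, 201, 205, 179 and 178 CPM in sham libraries 1 to 5, against 264, 247, 228, 167 and 199.7 CPM in naive libraries 1 to 5. The ranges overlapped, at -0.12 ± 0.13 (SE, adjusted p = 0.493). Kcnq1, the pore of the slow delayed rectifier, averaged 67.0 ± 6.58 CPM in sham and 80.7 ± 7.26 CPM in naive libraries and was lower at -0.27 ± 0.09 (SE, adjusted p = 0.0320). This call was lost when any of sham 2 to 5 or naive 1 to 3 was left out (adjusted p up to 0.0851), and with library size alone the log2 fold change was 0.0029. Kcne1, its accessory subunit, averaged 5.25 ± 0.438 CPM in sham and 4.37 ± 0.829 CPM in naive libraries, at 0.25 ± 0.16 (SE, adjusted p = 0.242). It passed as higher with library size alone (0.51, edgeR adjusted p = 0.0283) and scaled to cardiomyocyte markers (0.61, adjusted p = 0.00434). Kcne1l did not pass on the TMM scale, and it passed as higher when scaled to cardiomyocyte markers.

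Kcne4 (chromosome 1, 78816758 to 78820028, plus strand), a single-span subunit that dampens Kcnq1 and Kv1 currents in expression systems, had 5.36, 4.99, 4.69, 6.99 and 4.52 CPM in sham libraries 1 to 5, against 1.07, 1.54, 0.789, 2.27 and 1.39 CPM in naive libraries 1 to 5. The lowest sham library, sham 5, lay above the highest naive library, naive 4, and the log2 fold change was 1.89 ± 0.24 (SE, adjusted p = 1.71e-05), with 472 reads over the sham and 95 over the naive libraries.

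Inward rectifiers pass current more readily into the cell than out of it. Of the 4 tested genes of the strong inward rectifier class, 2 were lower and 2 did not pass. Kcnj2, the Kir2.1 pore (chromosome 11, 111066164 to 111076821, plus strand), had 10.9, 9.49, 12.3, 10.2 and 12.001 CPM in sham libraries 1 to 5, against 13.3, 17.5, 17.4, 13.6 and 19.0 CPM in naive libraries 1 to 5. The groups did not overlap, at -0.56 ± 0.13 (SE, adjusted p = 0.00265), but it passed neither with library size alone nor scaled to cardiomyocyte markers. Kcnj12, the Kir2.2 pore, stood higher per length and averaged 38.5 ± 7.43 CPM in sham and 48.3 ± 5.17 CPM in naive libraries. It lay just outside the threshold, at -0.33 ± 0.12 (SE, adjusted p = 0.0525), and passed without sham 1, naive 4 or naive 5 (adjusted p down to 0.0170). Kcnj14, with 47 reads over the sham and 75 over the naive libraries, was lower at -1.18 ± 0.40 (SE, adjusted p = 0.0323), but it did not pass in 7 of the 10 fits with 1 library left out, namely sham 1, 2, 3 or 5 or naive 1, 3 or 4. Kcnj4 was at -0.05 ± 0.30 (SE, adjusted p = 0.912).

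Both ATP-sensitive pores were lower on the TMM scale, and neither passed with library size alone or scaled to cardiomyocyte markers. Kcnj11 had 133, 108, 109.8, 95.6 and 100.2 CPM in sham libraries 1 to 5, against 154, 169.6, 152, 129 and 128 CPM in naive libraries 1 to 5. The ranges overlapped, since sham 1 lay above naive 4 and naive 5, and the log2 fold change was -0.42 ± 0.10 (SE, adjusted p = 0.00547). Kcnj8, the Kir6.1 pore found in vascular smooth muscle and pericytes, averaged 32.2 ± 2.93 CPM in sham and 39.7 ± 3.25 CPM in naive libraries and was lower at -0.30 ± 0.09 (SE, adjusted p = 0.0174). It did not pass without sham 2, 3 or 5 (adjusted p up to 0.0602), and scaled to cardiomyocyte markers it was at 0.06. The 5 pericyte markers summed to 639.9 to 723 CPM in sham and 631 to 704 CPM in naive libraries, with 0 past the threshold.

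Kcnj5 and Kcnj3 encode the channel that acetylcholine opens in atrium and nodes. Kcnj5 (chromosome 9, 32314707 to 32344350, minus strand) had 45.9, 43.9, 35.1, 32.8 and 40.4 CPM in sham libraries 1 to 5, against 47.7, 58.1, 59.5, 57.3 and 71.4 CPM in naive libraries 1 to 5. All sham libraries lay below all naive libraries, at -0.57 ± 0.12 (SE, adjusted p = 0.00124), though scaled to cardiomyocyte markers it did not pass (-0.21, edgeR adjusted p = 0.158). Kcnj3 averaged 7.33 ± 0.675 CPM in sham and 10.00 ± 3.00 CPM in naive libraries and lay just outside the threshold, at -0.46 ± 0.17 (SE, adjusted p = 0.0569). It passed without naive 1 or naive 3 (adjusted p down to 0.0121), and 31.1% of its exon bases overlap a gene on the other strand. Conduction system markers summed to 52.0 to 78.0 CPM in sham and 84.6 to 104 CPM in naive libraries, with 3 of 4 tested lower, and their part in these values was not tested. Kcnj15, an inward rectifier of the Kir4 group, had 1.73, 3.60, 3.82, 3.43 and 3.91 CPM in sham libraries 1 to 5, against 1.31, 0.737, 0.710, 1.096 and 1.64 CPM in naive libraries 1 to 5. Its log2 fold change was 1.60 ± 0.28 (SE, adjusted p = 3.90e-04), with sham 1 far below the other sham libraries.

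Tandem pore domain channels carry background current. Of the 6 tested genes 1 was lower, 2 were higher and 3 did not pass. Kcnk3 (chromosome 5, 30588170 to 30625271, plus strand) had 969, 864, 826, 795 and 759.8 CPM in sham libraries 1 to 5, against 1247, 1156, 1047, 886 and 925 CPM in naive libraries 1 to 5. The ranges overlapped, since sham 1 lay above naive 4 and 5, and it was lower at -0.32 ± 0.11 (SE, adjusted p = 0.0296). The call was lost when any of sham 2 to 5 or naive 1 to 3 was left out (adjusted p up to 0.0954), and scaled to cardiomyocyte markers the log2 fold change was 0.05.

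Kcnk13 (THIK-1, chromosome 12, 99964499 to 100062682, plus strand), known as a channel of microglia, had 5.10, 3.81, 3.42, 3.56 and 4.15 CPM in sham libraries 1 to 5, against 1.43, 1.66, 1.105, 1.49 and 0.820 CPM in naive libraries 1 to 5. The lowest sham library, sham 3, lay above the highest naive library, naive 2, at 1.62 ± 0.22 (SE, adjusted p = 3.46e-05). Kcnk6 (TWIK-2, chromosome 7, 29221926 to 29232515, minus strand), known for potassium efflux from macrophages, had 9.59, 13.3, 10.6, 9.62 and 12.7 CPM in sham libraries 1 to 5, against 5.94, 6.33, 9.31, 6.11 and 7.12 CPM in naive libraries 1 to 5. The margin was narrow, with naive 3 just under sham 1, at 0.68 ± 0.15 (SE, adjusted p = 0.00245). Kcnk2, Kcnk4 and Kcnk5 did not pass.

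Of the 8 tested calcium- and sodium-activated genes, 2 were lower, 1 was higher and 5 did not pass. Kcnn4 (chromosome 7, 24370263 to 24386690, plus strand), the intermediate conductance calcium-activated channel of blood cells and activated fibroblasts, had 4.24, 6.93, 5.56, 5.43 and 6.02 CPM in sham libraries 1 to 5, against 0.713, 0.983, 1.42, 0.548 and 0.820 CPM in naive libraries 1 to 5. This was the largest rise among the subunits, at 2.63 ± 0.23 (SE, adjusted p = 3.78e-07), with every sham library above every naive library and 502 reads over the sham against 60 over the naive libraries. The small conductance channels Kcnn1 and Kcnn2, which calcium opens through calmodulin, were lower on the TMM scale. They passed neither with library size alone nor scaled to cardiomyocyte markers. Kcnn1 averaged 21.2 ± 3.45 CPM in sham and 29.3 ± 3.56 CPM in naive libraries, at -0.47 ± 0.12 (SE, adjusted p = 0.00651), and Kcnn2 31.8 ± 6.24 CPM in sham and 45.0 ± 7.89 CPM in naive libraries, at -0.50 ± 0.14 (SE, adjusted p = 0.0139). Kcnn2 did not pass without sham 5 (adjusted p = 0.0517). Kcnma1, the large conductance pore of smooth muscle, averaged 0.905 ± 0.293 CPM in sham and 0.866 ± 0.326 CPM in naive libraries, at 0.06 ± 0.35 (SE, adjusted p = 0.925). Its accessory subunit Kcnmb1 was at 0.21 ± 0.26 (SE, adjusted p = 0.578), and the 7 smooth muscle markers summed to 4186 to 4831 CPM in sham and 4730 to 5571 CPM in naive libraries. Des, which cardiomyocytes also express, made up most of that sum, at 3795 ± 290.3 CPM in sham and 4365 ± 322 CPM in naive libraries. Of the 7 markers, Tagln was higher, at 1.24 ± 0.17 (SE, adjusted p = 6.82e-05), and 6 did not pass, with Acta2 at 0.61 ± 0.28 (SE, adjusted p = 0.129), Cnn1 at 0.53 ± 0.26 (SE, adjusted p = 0.127) and Myh11 at -0.19 ± 0.10 (SE, adjusted p = 0.149). Of the exon bases of Tagln, 67.9% overlap another gene, so its value is uncertain.

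Of the 7 higher subunits, several are known from immune cells or fibroblasts, and the markers of both cell types were higher in sham, as given above. Their part in these rises was not tested. The log2 fold changes of the 7 macrophage markers ran from 1.09 to 2.59 with a median of 1.66. Those of the 7 fibroblast markers ran from 0.31 to 3.84 with a median of 1.24. Those of the 7 subunits ran from 0.68 to 2.63.

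**Figure D5:**
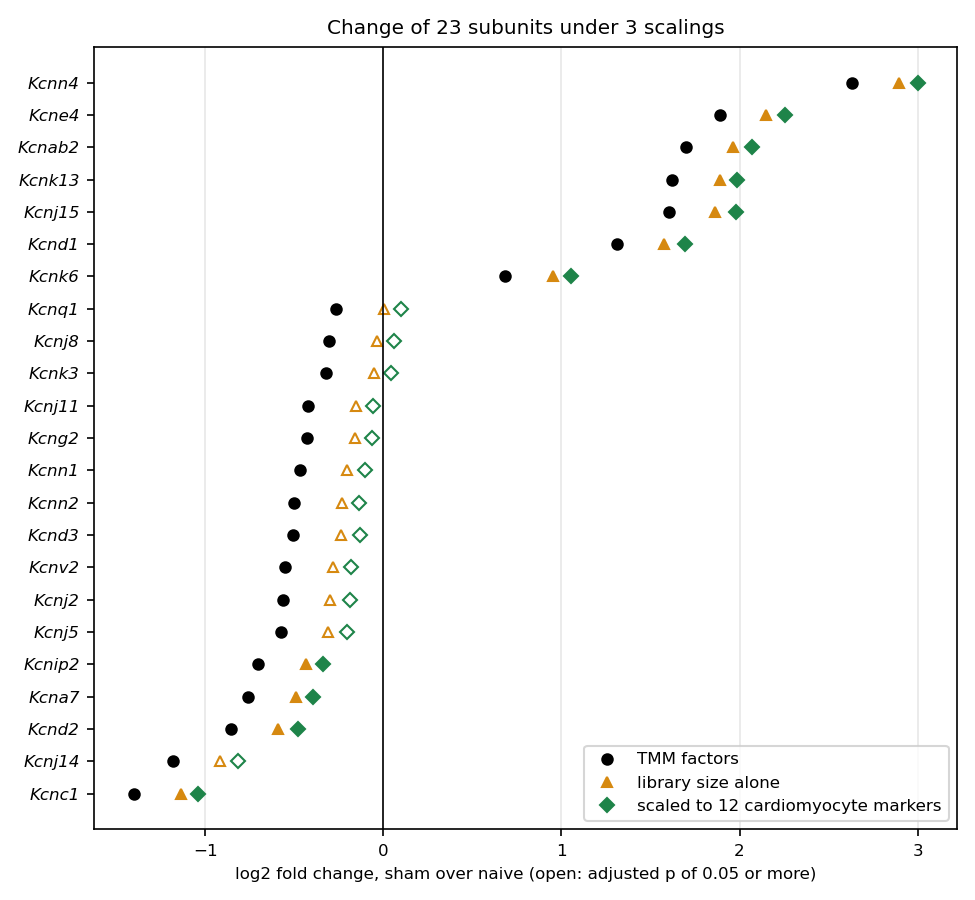
Log2 fold change of sham over naive for 23 of the 24 subunits past the threshold, under TMM factors, library size alone and scaling to 12 cardiomyocyte markers; open symbols have an adjusted p of 0.05 or more. Only Kcnip2, Kcna7, Kcnd2 and Kcnc1 among the lower subunits keep filled symbols under all 3 scalings, and all 7 higher subunits do.

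The cardiomyocyte markers themselves had a median log2 fold change of -0.39 on the TMM scale. Of the 17 lower subunits, 14 lay below that median. These 17 were chosen for passing as lower, which largely sets that count, so it is not support for a fall beyond the markers. Scaled to the markers, 4 of the 17 passed as lower. How far the cardiomyocyte share of RNA accounts for the lower subunits was not tested.

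For 6 pairs of subunits of the same channel class, 5 of which are given here, the log2 ratio of their CPM was taken within each library. None differed between the groups after Benjamini-Hochberg adjustment over the 6 (exact two-sided permutation test, 5 against 5, smallest possible p = 0.00794). Kcne1 to Kcnq1 came nearest, at -3.67 ± 0.208 in sham and -4.23 ± 0.382 in naive libraries (SD, n = 5, exact permutation p = 0.0238, adjusted p = 0.143). It passed without naive 5 (adjusted p = 0.0476). Kcnd2 to Kcnd3 was at -0.40 ± 0.201 in sham and -0.06 ± 0.355 in naive libraries (exact permutation adjusted p = 0.310). Kcnip2 to Kcnd2 was at 4.11 ± 0.170 in sham and 3.99 ± 0.387 in naive libraries (exact permutation adjusted p = 0.508). Kcnj12 to Kcnj2 and Kcnj8 to Kcnj11 differed by 0.21 and 0.12 between the group means (exact permutation adjusted p = 0.400 for each). Kcnj8 and Kcnj11 are known from different cell types, as given above, so their ratio compares across these. A p above the threshold does not show that these ratios were alike.

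Of 22 genes outside the family that partner or regulate these channels, 18 were tested. On the TMM scale, the scale computed for them, 6 were lower, 2 higher and 10 not past. Of the 18, 33.3% were lower and 11.1% higher, against 15.5% and 17.2% of all genes tested. Both ATP-sensing subunits that surround the Kcnj11 and Kcnj8 pores were lower. Abcc9 averaged 175 ± 25.8 CPM in sham and 262 ± 60.7 CPM in naive libraries, at -0.58 ± 0.15 (SE, adjusted p = 0.00668), and Abcc8 66.4 ± 4.82 CPM in sham and 77.7 ± 3.56 CPM in naive libraries, at -0.23 ± 0.08 (SE, adjusted p = 0.0311). Dpp6 and Dpp10, accessory subunits of Kv4 channels, were too low to be tested, with 89 and 32 reads in all. Among scaffolds and trafficking genes, Amigo1, an accessory protein of Kv2 channels, was lower at -0.35 ± 0.10 (SE, adjusted p = 0.0127), and the ubiquitin ligase Nedd4l at -0.27 ± 0.08 (SE, adjusted p = 0.0224). The actin cross-linker filamin A (Flna) was higher at 0.92 ± 0.11 (SE, adjusted p = 6.50e-06) and Pias3 at 0.23 ± 0.09 (SE, adjusted p = 0.0496). Of the transcription factors, Nkx2-5 was lower at -0.47 ± 0.13 (SE, adjusted p = 0.00876) and Tbx5 at -0.35 ± 0.10 (SE, adjusted p = 0.0174). Irx5, which represses Kcnd2 in mouse ventricle, was at -0.41 ± 0.21 (SE, adjusted p = 0.160), and Klf15, which drives Kcnip2 in mouse heart, at -0.33 ± 0.14 (SE, adjusted p = 0.0879).

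The 250 bases before the RefSeq transcription start (GRCm38.p6) are shown, on the strand of the gene and in lower case, for Kcnip2 and Kcnd2, which were lower under every alternative run, and for Kcnn4, which was higher. The windows of Kcna7, Kcnab2 and Kcne4 were examined too, but they lie wholly (Kcna7 and Kcnab2) or partly (Kcne4) within the annotated gene and are not shown. Capitals mark each match to a motif searched on both strands: TATAAA, the GC box GGGCGG, the AP-1 motif TGANTCA, the MEF2 motif (CTA, any 4 bases, TAG) and the PU.1 motif GAGGAAGT.
Kcnip2 (chr19:45816064-45816313, minus strand): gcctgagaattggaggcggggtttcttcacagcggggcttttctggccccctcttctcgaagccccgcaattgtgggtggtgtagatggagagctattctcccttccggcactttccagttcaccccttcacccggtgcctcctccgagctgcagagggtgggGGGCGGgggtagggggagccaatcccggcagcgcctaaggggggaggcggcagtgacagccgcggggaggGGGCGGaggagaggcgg
Kcnd2 (chr6:21215096-21215345, plus strand): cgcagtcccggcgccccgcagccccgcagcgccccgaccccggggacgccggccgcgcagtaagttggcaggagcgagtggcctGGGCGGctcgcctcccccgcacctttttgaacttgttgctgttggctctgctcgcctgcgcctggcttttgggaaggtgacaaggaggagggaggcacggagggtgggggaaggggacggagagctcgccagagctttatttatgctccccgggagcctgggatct
Kcnn4 (chr7:24370013-24370262, plus strand): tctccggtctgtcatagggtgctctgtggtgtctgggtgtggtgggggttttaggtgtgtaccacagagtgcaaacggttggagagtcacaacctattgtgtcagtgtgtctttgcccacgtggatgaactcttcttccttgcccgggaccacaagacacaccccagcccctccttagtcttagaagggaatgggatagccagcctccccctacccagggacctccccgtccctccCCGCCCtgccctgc
Kcnip2 held 2 GC boxes, Kcnd2, Kcnn4 and Kcnab2 1 each, and Kcna7 and Kcne4 none. The GC box stood in 32.7% of 32851 windows of the same length and in 48.9% of the 45 windows of the 36 subunits matched by symbol. None of these 6 windows held the other 4 motifs, which stood in 12.4% (TATAAA), 6.75% (AP-1), 3.20% (MEF2) and 2.44% (PU.1) of all windows. GC content was 66.8% for Kcnip2, 68.8% for Kcnd2 and 48.4% for Kcna7, and 58.8% for Kcnn4, 61.2% for Kcnab2 and 53.2% for Kcne4, against a median of 52.4% over all windows. Kcna7 had 1 CpG in its window and Kcnd2 22. The absence of a match says only that these letters are not in this window.

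At the edge of the set, Kcnc4 with 119 reads in all lay just inside, and Kcnh1 with 98 and Kcnab1 with 97 just outside. Exon bases overlapped another gene by over 10% in 5 subunits, with Kcna6, Kcnj3, Kcnk4 and Kcnk2 among them, none of them past the threshold, and not at all in 37.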

How the data were processed

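Poly(A) RNA of 10 ventricle samples was measured as raw read counts per gene, deposited by the authors in 1 table, which also gives a percentage of GC content for each gene, as deposited, used in the GC correction; how the authors obtained it is stated in no source used here. Per the submitters' processing notes, TopHat2 2.1.1, Bowtie2 and HTSeq were used with build GRCm38; the labels' protocols describe no strand-specific library, so overlapping genes on opposite strands were treated as not separable. From the table, 574 repeated rows were removed, leaving 40690 genes. Genes passing filterByExpr (minimum count 10, minimum total 15) were fitted with TMM factors and the robust edgeR 4.0.16 quasi-likelihood F test under R 4.3.3, on sham against naive, with Benjamini-Hochberg adjustment over 13622 genes. DESeq2 1.42.0 and the other settings of the closing section were alternatives. The standard error is the log2 fold change divided by the square root of F. The code was tested on simulated data. It recovered 43.1% of 1.5-fold, 76.6% of 2-fold and 100% of 4-fold changes, and 5 of 148 calls were false. A subunit not past the threshold is thus not shown to be unchanged.

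Exon lengths came from GENCODE M21. Levels per length were planned as TPM; because a 57-base non-coding gene took 41.5% ± 11.9 of TPM in sham and 65.1% ± 3.72 in naive libraries, CPM per kilobase of exon was used instead, chosen after seeing the data. Log2 ratios used CPM plus 0.5 only as an alternative. The floor of 3 reads covers counting error only. The genes and lists were chosen with earlier results of these data known. Named are all subunits past the threshold, a fixed list of cardiac current genes, the 5 with the highest level per length, those nearest the 100-read threshold and partner genes past the threshold; others in the text were chosen after their values were seen. Some subunits enter the counts and fits but are not reported here by name or drawn in the figures.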

Additional observations from a re-analysis of the deposited data

Results flagged for a closer look

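In groups of 5 libraries, the lowest and the highest library's distance from its neighbour was compared with the range of the group for 32 subunits, 64 groups in all. Dixon's criterion (0.71 for 5 libraries) was passed in 3 of the 64 groups, and chance passes about 1 in 20. Kcnd3 in naive 4 was the lowest of its group at 18.0 CPM, with the next at 24.3 CPM. Kcnj3 in sham 1 was lowest at 6.14 CPM, with the next at 7.43 CPM. Kcnj15 in sham 1 was lowest at 1.73 CPM, with the next at 3.43 CPM.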

How the results depend on the processing

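Higher and lower subunits numbered 7 and 17 with TMM, with DESeq2, with RLE factors, without the filter and without robust estimation, and 7 and 16 with a minimum of 1 CPM in 5 samples. Library size alone gave 9 and 4, and scaling to cardiomyocyte markers 11 and 4. Over all genes tested, library size alone gave 4473 higher and 283 lower and cardiomyocyte scaling 6075 and 125, against 2342 and 2113 with TMM. Leaving out 1 library gave 11 (without sham 5) to 18 (without naive 5) lower and 7 higher subunits each time. Over all genes tested, these fits gave 1465 (without sham 2) to 2249 (without naive 1) lower. Leaving out sham 4 and naive 1 together gave 12 lower and 7 higher subunits, and 2131 lower over all genes tested. Among subunits called with TMM, the log2 fold change changed sign for Kcnq1 with library size alone (0.0029), and for Kcnk3 (0.045), Kcnq1 (0.10) and Kcnj8 (0.060) when scaled to cardiomyocyte markers; the cause was not tested. Among named subunits not called, it changed sign for Kcnh2 (0.15 and 0.24) and Kcna5 (0.22 and 0.32) with library size alone and with cardiomyocyte scaling, for Kcnj12 with cardiomyocyte scaling (0.035), and for Kcna4, Kcna5, Kcnh2 or Kcnma1 in some fits with libraries left out. Without the filter Kcnq1 (adjusted p = 0.114) and Kcnj8 (adjusted p = 0.0743) did not pass. The Kcne1 to Kcnq1 log2 difference ranged from 0.39 to 0.65 when 1 library was left out and passed without naive 5 (0.65, exact permutation adjusted p = 0.0476). Same-numbered sham and naive libraries correlated at 0.0171 to 0.324, and differently numbered ones at -0.339 to 0.257. Of the 5 sham libraries, 3 correlated best with their own number. Every same-number correlation was positive. The main fit did not take the numbers as pairs because the labels state no pairing or batch, and the correlations do not settle this choice. Whether they mark pairs or a batch was not tested. With the replicate block 19 subunits were lower and 7 higher, with the centred GC correction 19 and 7, and with both together 22 and 7. Lower calls over all genes tested rose in these fits too. They numbered 2801 with the block, 2307 with the GC correction and 2982 with both, against 2113 with TMM alone. Low counts limit Kcnj14 and Kcnc4.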
